A study of Mus musculus with 14 samples.

Results

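The 8 genes described here encode proteins that seal or bypass the wall of the blood vessel: *Cldn5*, *Ocln*, *Tjp1*, *Jam2* and *Esam* of the tight junction, *Cdh5* of the adherens junction, and *Cav1* and *Plvap* of caveolae and fenestrae. They were chosen by name for their known roles, with earlier results of these data already seen. They are 8 of the 26528 genes counted in nuclei of brain vascular fragments. Their transcripts were counted as unique molecular identifiers (UMIs), added up within each cell type label of each library. The level of a gene is given as its UMIs per 1000000 UMIs of the same nuclei (CPM).

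The study removed TGF-beta signaling from endothelial cells (ECs) of mice and profiled nuclei by single-nucleus RNA sequencing (snRNAseq). The brain data comprise 1 CKO library, from *Cdh5CreER;Tgfbr1 CKO/-* mice, and 1 control library, labeled wild type. Controls of this kind were phenotypically WT and typically *Cdh5CreER;Tgfbr1 CKO/+*, so they can carry the Cre transgene and a conditional allele. Each library pooled vascular fragments from 2 brains, and 4-hydroxytamoxifen, which activates CreER, was given between postnatal days 3 and 5, with tissue taken at postnatal day 14 according to the methods. The series' text speaks of young adult mice. Cre is expressed from the *Cdh5* promoter, and *Cdh5* is itself 1 of the 8 genes. With 1 library per genotype no difference between genotypes can be tested. Ranges in parentheses are 95% intervals, which cover only counting error.

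The control library holds 16649 nuclei and 49798325 UMIs, and the CKO library 14675 nuclei and 31033373 UMIs. Nuclei carry 21 different cell type labels. ECs are 2475 control nuclei with 5801552 UMIs and a median of 1347, and 2944 CKO nuclei with 6851854 UMIs and a median of 1491. The libraries share 2 barcode sequences.

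ECs of the brain are joined by tight junctions, in which claudin-5 and occludin span the membranes of neighboring cells and ZO-1 ties them to actin. VE-cadherin holds the same cells together at adherens junctions. Caveolae are small membrane pits that carry material across the cell, and ECs with a mature blood-brain barrier are known for few of them.

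The label ECs was checked against marker genes. All 10 endothelial markers had UMIs in EC nuclei of both libraries, and together they were at 14477 CPM in control and 11135 CPM in CKO nuclei, so that CKO stood to control at a ratio of 0.769 (0.762 to 0.777). *Flt1*, a receptor for VEGF, was the most abundant, at 3982 and 2745 CPM. The same nuclei held UMIs of all 8 pericyte markers, summing to 8390 CPM in control and 7127 CPM in CKO nuclei. *Rgs5*, the most abundant of these, was at 5631 and 4831 CPM. Of the EC nuclei, 363 control and 133 CKO nuclei had no UMI of any pericyte marker. Values for ECs are therefore values of nuclei labeled ECs, which hold pericyte transcripts in both libraries.

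Red blood cell transcripts also differed between the libraries. The 4 hemoglobin genes summed to 18582 CPM in control EC nuclei and 9033 CPM in CKO EC nuclei, led by *Hbb-bs*, with UMIs of all 4 in both. Choroid plexus epithelium markers, led by *Ttr*, summed to 1119 and 478 CPM with all 4 detected. The part of these transcripts in the ratios below was not tested.

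The mice of the libraries differed in sex-linked transcripts. *Xist*, made from the inactive X chromosome, was at 1963 CPM over all control nuclei and at 1.29 CPM over all CKO nuclei. The summed Y chromosome genes *Ddx3y*, *Uty*, *Kdm5d* and *Eif2s3y* were at 189 and 421 CPM. Sex and genotype cannot be told apart in any ratio given here.

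*Tgfbr1*, the targeted receptor gene, was at 69.1 CPM in control ECs and 62.9 CPM in CKO ECs, a ratio of 0.910 (0.792 to 1.05). UMIs are summed over the whole gene, so a deleted segment is not visible in this value and it does not check the labels. *Tgfbr2*, which encodes its partner receptor, was at 396 and 742 CPM, a ratio of 1.87 (1.78 to 1.97).

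In ECs, *Cav1* and *Cdh5* were higher in the CKO library and the 5 tight junction genes were at lower ratios, between 0.724 and 0.955. The direction of *Cldn5*, *Ocln*, *Tjp1* and *Esam* turned when ECs were defined by endothelial markers in place of the label, with ratios of 1.01, 1.02, 1.16 and 1.14. That set takes nuclei of any label with at least 2 of these markers. It holds 3279 control and 3142 CKO nuclei, against 2475 and 2944 labeled ECs, so it includes nuclei of other labels. Their part in these ratios was not tested. Of the 8 genes, 7 had at least 100 UMIs over both libraries, and 2 of these were past 1.5-fold higher, where 19.3% of the 9792 genes with as many UMIs were. None of the 7 was past 1.5-fold lower, where 7.68% of all genes were. *Plvap* had too few UMIs to be counted. The median log2 ratio of all these genes was 0.14, and TMM scaling, which centers the bulk of genes, subtracts 0.10 from each log2 ratio. Under it the genes past the fold were 59.8% higher, against 71.6% without it, and *Cdh5* was no longer past the fold.

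**Figure D1:**
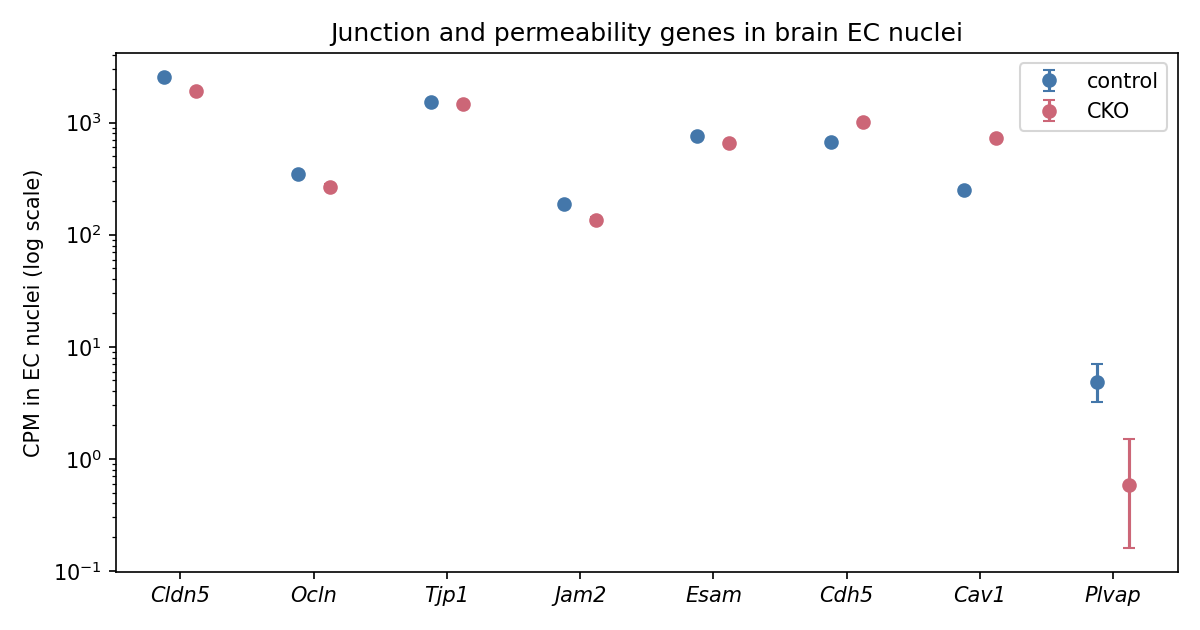
Level of the 8 genes in nuclei labeled ECs, in CPM on a log axis, with 1 point per gene and library and bars for exact Poisson 95% intervals. *Cav1* stands at 250.1 CPM in control and 725 CPM in CKO nuclei, and *Plvap* is below 10 CPM in both.

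Among the tight junction genes, *Cldn5* encodes the main claudin of brain ECs. It had 14691 UMIs in the control library, 2532 CPM (2491 to 2574), and 13018 UMIs in the CKO library, 1900 CPM (1867 to 1933). The CKO over control ratio was 0.750 (0.733 to 0.768), close to the ratio of 0.769 of the summed endothelial markers. Scaled to those markers in place of all UMIs, a setting chosen after the data had been seen, the ratio was 0.975.

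*Ocln*, which encodes occludin, was at 346 CPM (331 to 362) in control and 269 CPM (257 to 281) in CKO nuclei. Its ratio was 0.776 (0.728 to 0.827), and 1.01 when scaled to endothelial markers. The ratios of *Ocln* and *Cldn5* thus lay near that of the summed endothelial markers, whose 10 members did not move together. Their ratios ran from 0.645 for *Slco1a4*, a transporter, to 0.992 for *Tek* and 1.04 for *Abcb1a*, so the sum does not describe each marker.

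*Jam2*, a junctional adhesion molecule of the immunoglobulin family, was at 186 CPM (175 to 197) in control and 135 CPM (126 to 144) in CKO nuclei. Its ratio of 0.724 (0.663 to 0.792) was the lowest of the tight junction genes. *Esam*, a related adhesion molecule of ECs and platelets, was at 764 CPM (741 to 787) and 654 CPM (635 to 674), a ratio of 0.857 (0.822 to 0.893). Both genes were on the lower side in the CKO library, but the ratio of *Esam* was above 1 in 4 of 9 other settings. In EC nuclei without pericyte marker UMIs it was 2.84 (1.59 to 5.05), from 27 and 26 UMIs. *Esam* was there at 120 CPM in control and 341 CPM in CKO nuclei, against 790 and 658 CPM in EC nuclei with pericyte marker UMIs. The nuclei of this subset thus differ from the other EC nuclei, and more so in the control library.

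*Tjp1* encodes the scaffold protein ZO-1, which many cell types use. It was at 1529 CPM (1497 to 1561) in control and 1460 CPM (1431 to 1489) in CKO nuclei, a ratio of 0.955 (0.928 to 0.982). Its direction was not stable, with a ratio above 1 in 4 of 9 other settings and 1.24 at most, when scaled to endothelial markers. In EC nuclei without pericyte marker UMIs the ratio was 0.548. *Tjp1* was there at 4375 CPM in control and 2397 CPM in CKO nuclei, against 1414 and 1449 CPM in EC nuclei with pericyte marker UMIs. Where pericyte markers were at most 10% of marker UMIs the ratio was 0.624.

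*Cdh5* encodes VE-cadherin, the cadherin of EC adherens junctions. It had 3872 UMIs in the control library, 667 CPM (647 to 689), and 6874 UMIs in the CKO library, 1003 CPM (980 to 1027). The ratio was 1.503 (1.445 to 1.564), barely past the fold of 1.5. In the 9 other settings it lay between 1.40 and 1.95. The median ratio of all genes was 1.10 here, but 1.96 in EC nuclei without pericyte marker UMIs and 1.78 where pericyte markers were at most 10% of marker UMIs. In these 2 settings *Cdh5*, at 1.86 and 1.63, lay below the median gene.

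*Cav1* encodes caveolin-1, the coat protein of caveolae. It had 1451 UMIs in the control library, 250.1 CPM (237 to 263), and 4966 UMIs in the CKO library, 725 CPM (705 to 745). The ratio was 2.90 (2.73 to 3.07), the highest of the 8 genes, and lay between 2.49 and 3.77 in the 9 other settings, above the median of all genes in each. EC nuclei with at least 2 *Cav1* UMIs were 12.8% in control and 38.7% in CKO nuclei.

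*Plvap* encodes a protein of the diaphragms that close caveolae and fenestrae, and is known for its absence from most ECs of the mature brain. It had 28 UMIs in 15 control EC nuclei, 4.83 CPM (3.21 to 6.98), and 4 UMIs in 2 CKO EC nuclei, 0.584 CPM (0.159 to 1.49). The ratio was 0.121 (0.0308 to 0.346). With 1 CKO nucleus holding 75.0% of the CKO UMIs, and a ratio of 0.738 when nuclei are thinned to 1000 UMIs, the size of this difference is not fixed by these counts.

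**Figure D2:**
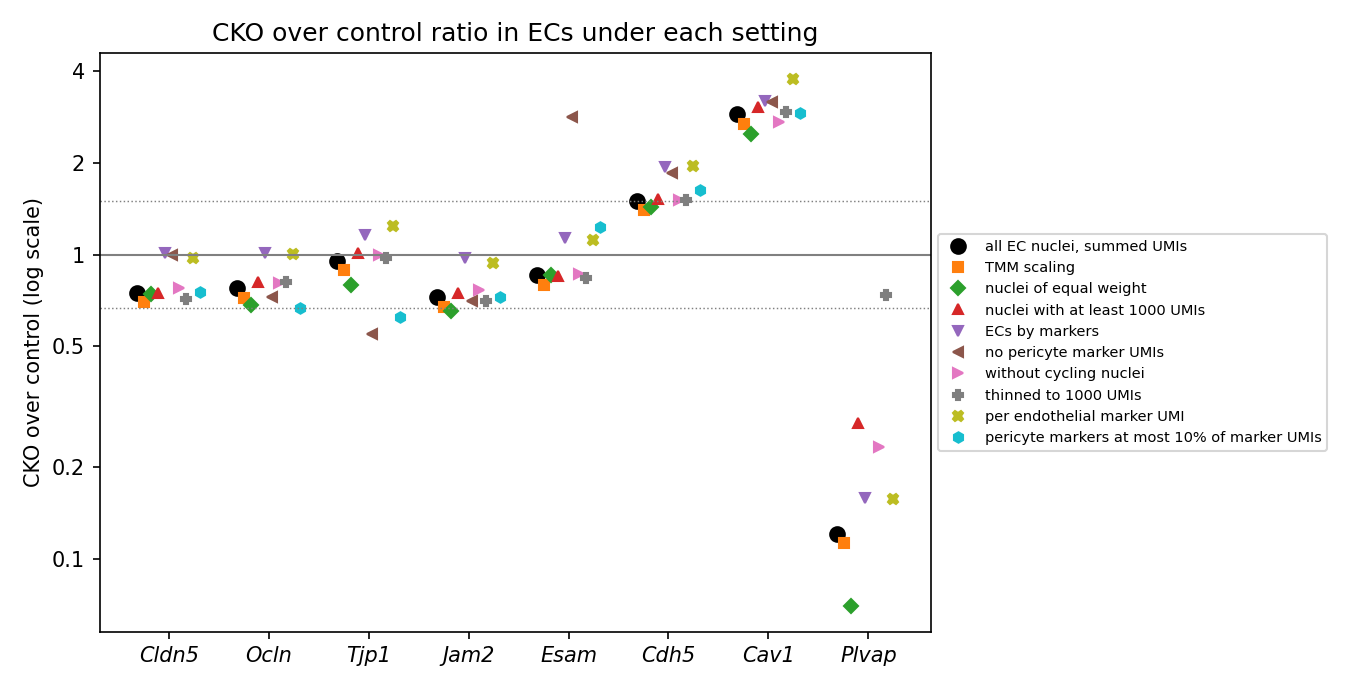
CKO over control ratio of the 8 genes in ECs, on a log axis, with 1 symbol per setting, a solid line at 1 and dotted lines at a fold of 1.5 in each direction. *Cav1* and *Cdh5* are above 1 in every setting drawn, and *Cldn5*, *Ocln*, *Tjp1* and *Esam* lie on both sides of 1. *Cdh5* is below the median of all genes in the 2 settings limited by pericyte markers, where few nuclei make that median coarse.

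Shares of nuclei with a UMI depend on depth, so each EC nucleus was thinned to 1000 UMIs, which left out 1005 control and 1055 CKO nuclei below that depth and kept 1470 and 1889. A *Cav1* UMI was then expected in 21.4% (19.4 to 23.6) of control and 50.2% (48.0 to 52.5) of CKO nuclei. Without thinning the shares of all EC nuclei were 36.8% and 67.3%. *Cav1* thus differed in the share of nuclei as well as in CPM.

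*Cdh5* was at 48.0% (45.4 to 50.6) of thinned control nuclei and 62.6% (60.4 to 64.8) of thinned CKO nuclei, and at 63.7% and 76.9% without thinning. *Cldn5* was at 88.8% (87.1 to 90.4) and 82.2% (80.4 to 83.9), and at 86.6% and 88.8% unthinned. In the nuclei with at least 1000 UMIs, not thinned, a value chosen after the data had been seen, *Cldn5* was at 97.3% (96.3 to 98.0) and 96.1% (95.2 to 97.0), with overlapping intervals. The order of the libraries for *Cldn5* thus turned where shallow nuclei were left out, before any thinning, and the thinned order is that of the CPM.

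*Ocln*, *Jam2* and *Esam* were at lower shares of thinned CKO nuclei, in the order of their CPM. *Ocln* was at 28.5% (26.2 to 30.9) and 24.0% (22.1 to 26.0) of thinned control and CKO nuclei, against 46.6% and 40.3% unthinned. *Jam2* was at 17.0% (15.1 to 19.0) and 12.01% (10.6 to 13.6), against 30.5% and 23.4%. *Esam* was at 54.1% (51.5 to 56.7) and 48.7% (46.5 to 51.0), against 64.9% and 65.9%. Its order too turned where shallow nuclei were left out, at 83.3% and 79.6% of the nuclei with at least 1000 UMIs before thinning. *Tjp1* was at 74.4% (72.1 to 76.6) and 74.6% (72.6 to 76.5) of thinned nuclei and 85.3% and 85.1% unthinned, and its thinned intervals overlap. *Plvap* was at 0.172% and 0.0599% thinned and at 0.606% and 0.0679% unthinned.

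Nuclei of the neuronal label Glut_0 and of oligodendrocytes served as types that should lack the endothelial genes. Their median depths were 5004 and 2314 UMIs in Glut_0 and 2328 and 954.5 in oligodendrocytes, for control and CKO. Thinned to 1000 UMIs, a *Cldn5* UMI was expected in 0.0135% of control and 0.0255% of CKO Glut_0 nuclei, and in 0.193% of control oligodendrocytes, with 0 UMIs in CKO oligodendrocytes. *Cav1* had 0 UMIs in Glut_0 of both libraries. The EC shares of *Cldn5*, *Ocln*, *Tjp1*, *Jam2*, *Esam*, *Cdh5* and *Cav1* were above those of both labels in both libraries. *Tjp1* was itself frequent there, with 30.7% and 32.1% of thinned Glut_0 nuclei and 52.0% (47.5 to 56.5) and 65.7% (60.0 to 71.1) of thinned oligodendrocytes. *Plvap* was at 0.0156% and 0.0071% of thinned Glut_0 nuclei, and its EC share rests on 15 and 2 nuclei. In the neuronal label Glut_1 it was at 0.536% (0.222 to 1.08) of thinned control and 0.798% (0.408 to 1.40) of thinned CKO nuclei, above the EC shares of 0.172% (0.0291 to 0.547) and 0.0599% (0.0022 to 0.307). The *Plvap* share of ECs was thus not above that of every neuronal label.

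**Figure D3:**
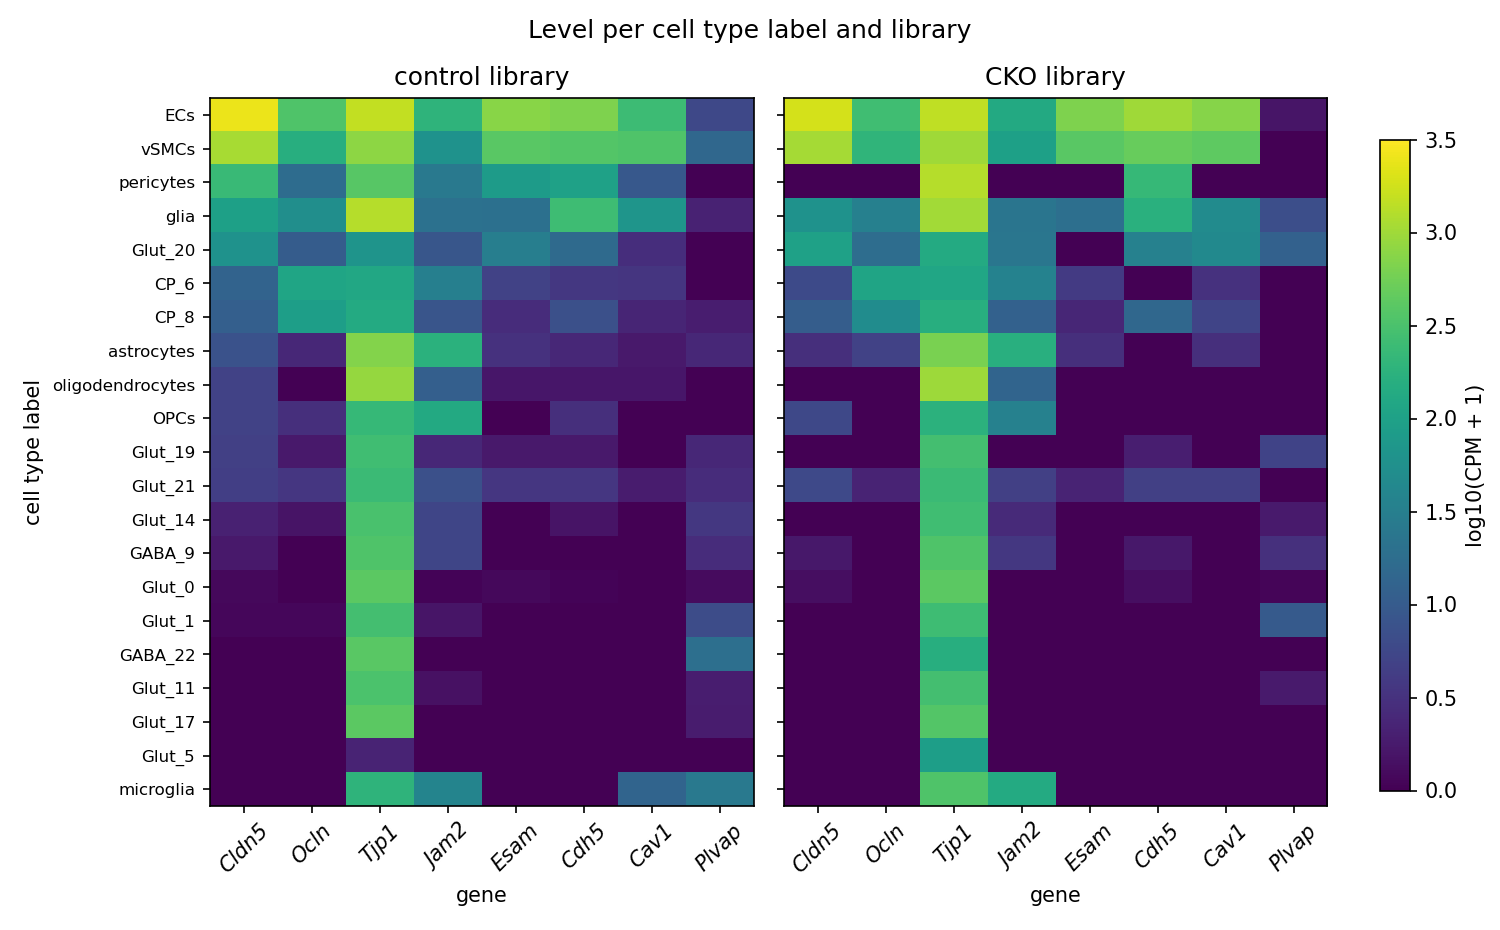
Level of the 8 genes in each of the 21 cell type labels, as the color of log10(CPM + 1), with the control library on the left and the CKO library on the right and labels ordered by *Cldn5* in the control library. *Cldn5*, *Esam*, *Cdh5* and *Cav1* are concentrated in ECs and vSMCs, whereas *Tjp1* has UMIs in every label.

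Across labels, *Cldn5* was highest in ECs, followed by vSMCs at 1102 CPM in control and 1053 CPM in CKO nuclei. Of all *Cldn5* UMIs, 98.1% in control and 99.5% in CKO nuclei lay in these 2 labels. Nuclei labeled vSMCs, 449 and 103 in number, held pericyte markers at 6583 and 6278 CPM, endothelial markers at 5988 and 5996 CPM and smooth muscle markers at 4521 and 4057 CPM, with all markers of the 3 lists detected, so they hold transcripts of all 3 cell types. In the control library pericytes came next, at 238 CPM. Glia were at 95.8 and 60.1 CPM and Glut_20 at 60.7 and 101 CPM, so that their order differed between the libraries. CKO pericytes are 22 nuclei with 0 *Cldn5* UMIs, and 3 counts there would be 326 CPM, so a difference was not detectable at this depth. The labels CP_6 and CP_8 were near 11 CPM in the control, and the remaining labels were below 10 CPM in both libraries.

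*Esam* and *Cdh5* had the same leading labels. *Esam* was at 403 CPM in vSMCs of both libraries, at 82.1 CPM in control pericytes, and below 31 CPM in the other labels. *Cdh5* was at 369 and 492 CPM in vSMCs and at 256 and 166 CPM in glia. Pericytes were at 98.5 CPM from 12 UMIs in the control, below glia, and at 217 CPM from 2 UMIs in the CKO library, above glia. Nuclei labeled glia held fibroblast markers, led by *Col1a2*, at 3774 and 3896 CPM, above their astrocyte markers at 2045 and 1841 CPM. The markers of this label thus go against its name, and its values for any gene are not taken as levels of glial cells. In vSMCs the *Cdh5* ratio was 1.33 (1.09 to 1.62), and in glia it was 0.650 (0.508 to 0.824). Summed endothelial markers of glia moved the same way, from 1214 to 913 CPM, a ratio of 0.752 (0.678 to 0.833), with all 10 detected and *Abcb1a* leading. Pericyte markers, led by *Atp13a5*, were at 1187 and 791 CPM, a ratio of 0.667 (0.597 to 0.743), with *Kcnj8* at 0 in the CKO library. Hemoglobin genes, all 4 detected and led by *Hbb-bs*, went the other way, from 1202 to 2762 CPM. The part of these transcripts in the *Cdh5* ratio of glia was not tested.

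*Cav1* had a different order in the 2 libraries. In the control it was higher in vSMCs, at 347 CPM, than in ECs, and in the CKO library it was higher in ECs than in vSMCs, at 434 CPM. Glia followed at 65.2 and 48.1 CPM, and other labels had 8 UMIs or fewer in either library. The *Cav1* ratio was 1.25 (1.01 to 1.54) in vSMCs and 0.737 (0.454 to 1.15) in glia. In vSMCs all 5 fibroblast markers, led by *Col1a2*, summed to 1521 and 3035 CPM, a ratio of 2.00 (1.84 to 2.16), and all 4 hemoglobin genes, led by *Hbb-bs*, to 10700 and 6704 CPM. Their part in the *Cav1* and *Cdh5* ratios of vSMCs was not tested. Whether the *Cav1* ratios of vSMCs and glia differ from that in ECs was not tested beyond their intervals, which do not overlap the EC interval. For *Cdh5*, the interval in vSMCs contains the whole EC interval. Glut_20 had 1 control and 8 CKO *Cav1* UMIs, the latter in 3 nuclei, too few to give a level.

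*Ocln* was also found in the labels CP_6 and CP_8, which are named for the choroid plexus. After ECs it was at 155 and 194 CPM in vSMCs, at 114 and 109 CPM in CP_6 and at 91.5 and 48.9 CPM in CP_8. The ratio in CP_6 was 0.954 (0.784 to 1.16), and in CP_8, with 208 and 35 UMIs, 0.535 (0.362 to 0.767). Endothelial markers of CP_8, led by *Slco1a4* with all 10 detected, summed to 329 and 217 CPM, a ratio of 0.659 (0.551 to 0.785). Its capillary markers had a ratio of 0.446 (0.275 to 0.692). Astrocyte markers of CP_8, led by *Slc1a2*, went the other way, from 321 to 530 CPM, a ratio of 1.65 (1.45 to 1.87). The part of these transcripts in the *Ocln* ratio of CP_8 was not tested. The 4 choroid plexus markers, led by *Ttr*, had UMIs in both labels and summed to 41863 and 40716 CPM in CP_8 but to 2998 and 1315 CPM in CP_6, below the 4464 CPM of control vSMCs. CP_6 also held all 5 astrocyte markers, led by *Slc1a3*, at 1648 and 1626 CPM and all 3 ependymal markers, led by *Foxj1*, at 1304 and 1281 CPM. The markers of CP_6 thus go against its choroid plexus name, and *Ocln* in that label is not taken as a level of choroid plexus epithelium. Glia were at 53.1 and 32.1 CPM, and no other label was above 17 CPM.

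*Jam2* was nearly as high in astrocytes, at 169 and 160 CPM, as in ECs, and the intervals of the 2 labels overlap in the control library. In the CKO library astrocytes were above ECs, within overlapping intervals. Oligodendrocyte precursors (OPCs) had 69 UMIs, 133 CPM, in the control and 7 UMIs, 33.5 CPM, in the CKO library, a ratio of 0.253 (0.0980 to 0.550). In OPCs all 6 neuron markers were detected and summed to 1331 and 2500 CPM, led by *Syt1* in the control and *Rbfox3* in the CKO library, and all 5 astrocyte markers to 290 and 632 CPM, led by *Slc1a3* and *Slc1a2*. Endothelial markers went the other way, from 58 to 5 UMIs or 111 to 23.9 CPM, a ratio of 0.215 (0.0673 to 0.531). Choroid plexus markers, led by *Ttr*, and hemoglobin genes, led by *Hbb-bs*, were also lower, at ratios of 0.249 and 0.147. The part of all these transcripts in the *Jam2* ratio of OPCs was not tested. vSMCs were at 59.5 and 96.8 CPM, below OPCs in the control and above them in the CKO library, and CP_6 was at 31.5 and 35.1 CPM. Microglia and pericytes had 3 *Jam2* UMIs or fewer per library.

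*Tjp1* had UMIs in all 21 labels, and is known from many cell types. After ECs it was at 1295 and 1020 CPM in glia, 883 and 961 CPM in oligodendrocytes, 805 and 995 CPM in vSMCs and 698 and 627 CPM in astrocytes. CKO pericytes were at 1303 CPM from 12 UMIs, against 386 CPM from 47 UMIs in the control. Most labels named Glut or GABA lay between 239 and 412 CPM in both libraries. Exceptions were GABA_22, at 397 and 157 CPM, Glut_20, at 64.5 and 135 CPM, and Glut_5, with 2 and 16 UMIs or 1.25 and 91.5 CPM. Astrocyte markers of Glut_5 were at 9.41 and 183 CPM and its pericyte markers at 8.15 and 85.7 CPM. Its choroid plexus markers went the other way, from 219 to 5.72 CPM. Their part in the *Tjp1* values of Glut_5 was not tested. Glut_20 held oligodendrocyte markers at 6358 and 5524 CPM, above its neuron markers at 4524 and 3844 CPM, and choroid plexus markers at 2839 and 2354 CPM, so its markers go against a neuronal name. Unlike *Cldn5*, *Tjp1* had 34.3% of its control UMIs and 53.5% of its CKO UMIs in ECs.

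Over all labels *Plvap* had 120 UMIs in control and 58 in CKO nuclei. Of these, the largest number lay in the neuronal label Glut_1, with 38 and 39 UMIs or 5.48 and 8.82 CPM. vSMCs had 21 UMIs, 13.6 CPM, in control and 0 in CKO nuclei. GABA_22 and microglia were at 17.7 and 25.0 CPM in the control from 5 and 2 UMIs.

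Among EC nuclei, those with UMIs of at least 2 of 10 cell cycle genes numbered 176 for control and 638 for CKO, at median depths of 3407 and 2785 UMIs. In these, *Cav1* was at 198 and 761 CPM, a ratio of 3.85 (3.28 to 4.53), and *Cdh5* at 558 and 942 CPM, a ratio of 1.69 (1.53 to 1.87). In the other EC nuclei the ratios were 2.72 (2.55 to 2.91) for *Cav1* and 1.51 (1.44 to 1.58) for *Cdh5*. Both genes were thus higher in the CKO library with and without cell cycle transcripts. *Cldn5* was lower in nuclei with cell cycle UMIs, at 1960 and 1643 CPM, than in those without, at 2630 and 2037 CPM. The nuclei without them were shallower, at median depths of 1273 and 1264.5 UMIs.

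The EC nuclei with a *Plvap* UMI numbered 15 for control and 2 for CKO. In the 15 control nuclei *Cldn5* was at 1590 CPM and *Cdh5* at 857 CPM, against 2543 and 665 CPM in the nuclei without it. *Ocln* was at 203 against 348 CPM, *Tjp1* at 1388 against 1531, *Jam2* at 46.8 against 188, *Esam* at 608 against 766 and *Cav1* at 249 against 250.1. The intervals in the 15 nuclei, 646 to 1116 CPM for *Cdh5*, 1114 to 1707 for *Tjp1*, 432 to 831 for *Esam* and 143 to 405 for *Cav1*, include the levels of the other nuclei. *Cldn5*, from 102 UMIs, and *Jam2*, from 3 UMIs, were lower in the 15 nuclei, with intervals that do not overlap, and for *Ocln* the intervals overlap. These intervals cover counting error and not the spread among nuclei. The 2 CKO nuclei are too few for a comparison.

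EC nuclei with UMIs of capillary markers and none of arterial or venous markers, a grouping chosen after the data had been seen, were 675 and 635 in number. In these the *Cav1* ratio was 2.71 (2.31 to 3.20), the *Cdh5* ratio 1.41 (1.26 to 1.58) and the *Cldn5* ratio 0.670 (0.626 to 0.717). The grouping took shallow nuclei, at median depths of 640 and 759 UMIs, against 1347 and 1491 in all EC nuclei. Nuclei with only arterial markers, 12 and 25, and with only venous markers, 29 and 81, were few. Their *Cav1* ratios were 0.622 (0.236 to 1.91), from 6 and 18 UMIs, and 1.95 (0.791 to 6.24), from 5 and 58 UMIs, and both intervals include 1. The summed capillary markers, led by *Slc16a1*, were at 5876 CPM in control and 3037 CPM in CKO ECs, and tip cell markers, led by *Apln*, at 354 and 569 CPM. Arterial markers were at 403 and 446 CPM and venous markers at 711 and 628 CPM. The members of these 2 lists went both ways, with ratios from 0.699 for *Bmx* to 1.31 for *Efnb2* among arterial and from 0.605 for *Vwf* to 6.17 for *Ackr1* among venous markers, so their sums do not describe each member. All markers of these 4 lists had UMIs in both libraries.

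Other genes of the same structures were described with lists. Of 27 tight junction genes, 19 had at least 100 UMIs in ECs, of which 3 were past 1.5-fold higher and 0 past 1.5-fold lower, beside 19.3% and 7.68% of all genes, with a median log2 ratio of -0.07 against 0.14 for all genes. The count of 3 higher genes is near the share of all genes and says nothing particular of the list. They were *Ildr2*, *Mpdz* and *Cldn12*. *Ildr2*, an angulin related to the protein of tricellular junctions, was at 206 CPM in control and 866 CPM in CKO nuclei, a ratio of 4.21 (3.95 to 4.48). *Mpdz*, which encodes a multi-PDZ scaffold protein, was at 55.0 and 99.2 CPM, and *Cldn12* at 8.27 and 19.7 CPM. *Cldn5*, *Tjp1* and *Esam* had the most UMIs of the list.

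Of 24 adherens junction genes, 22 had at least 100 UMIs, with 2 past 1.5-fold higher and 4 lower, beside 19.3% and 7.68% of all genes, and a median log2 ratio of 0.02. The count of 2 is a smaller share than that of all genes and the count of 4 a larger one. Besides *Cdh5*, *Nectin2* was higher, at 43.8 and 74.9 CPM. *Ptprb*, which encodes the phosphatase VE-PTP that binds VE-cadherin, was lower, at 2249 and 1186 CPM, a ratio of 0.527 (0.513 to 0.542). *Heg1*, a receptor that acts with the CCM proteins, had a ratio of 0.625 (0.602 to 0.649), from 1144 and 715 CPM. *Tmem204* was at 225 and 112 CPM. *Cdh2*, the N-cadherin gene, which pericytes also use, was at 573 and 311 CPM. *Ptprm*, *Ptprb* and *Heg1* had the most UMIs, and *Ptprm* was at 2659 and 2739 CPM.

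Of 15 caveola and vesicle genes, 12 had at least 100 UMIs, with 2 past 1.5-fold higher and 2 lower, beside 19.3% and 7.68% of all genes, and a median log2 ratio of -0.04. The count of 2 higher genes is near the share of all genes. *Cavin3*, which encodes a caveolar coat protein, was at 37.2 and 67.4 CPM, a ratio of 1.81 (1.54 to 2.14), beside *Cav1*. *Cavin1*, with the third most UMIs of the list, was at 278 and 411 CPM, a ratio of 1.48 (1.39 to 1.57). *Mfsd2a*, a lipid transporter of brain ECs known to keep vesicle transport low, was at 728 and 340 CPM, a ratio of 0.468 (0.445 to 0.492). *Src*, a kinase that phosphorylates caveolin-1, was at 60.8 and 40.0 CPM. *Mfsd2a* is also 1 of the 4 capillary markers.

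Genes with a like pattern were sought over 36 sums, which are 18 labels in 2 libraries, by Pearson correlation of log2(CPM + 5) among 14448 genes. The sums of 1 library share their depth and preparation, so the correlations are descriptions. Closest to *Cldn5* were *Selenop*, *Kdr* and *Eng*, all with r = 0.99. *Ocln* was closest to *Tgfbr2* (0.98), *Abcc4* (0.97) and *Rassf9* (0.97), and *Cav1* to *Cebpd* (0.99), *Srgn* (0.99) and *Itpripl2* (0.98). *Cdh5* was closest to *Ppic*, *Vtn* and *Icam1* (all 0.99) and *Esam* to *Slc9a3r2*, *Srarp* and *Rasip1* (all 0.99). *Jam2* was closest to *Entpd1* (0.92), *Rftn2* (0.91) and *Tmem243* (0.90). For *Tjp1* the closest were *Pcmtd1* (0.87), *Vta1* (0.82) and *Ppp1r12a* (0.82). *Plvap*, with 178 UMIs, had r of at most 0.66, with *Pdcd7*, *Cmc2* and *B4galt7*.

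Gene positions are those of the GENCODE annotation on the GRCm39 build. *Cldn5* is at chr16:18595597-18597012 and *Jam2* at chr16:84570764-84623269. *Cdh5* is at chr8:104828231-104871143 and *Plvap* at chr8:71948674-71964506. *Cav1* is at chr6:17306140-17341451, *Tjp1* at chr7:64945898-65177529, *Esam* at chr9:37439344-37449615 and *Ocln* at chr13:100630334-100689535. All 8 are annotated as protein coding.

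Promoters of *Cldn5* and *Cav1* are shown because these genes had ratios on opposite sides of 1 in most settings. RefSeq promoters were matched for 4 of the 8 genes, on the earlier GRCm38.p6 build, whose positions are not those of the gene positions above. Each run is the 250 bases before the annotated start, on the plus strand, with the SMAD element CAGAC, or GTCTG on the other strand, in capitals. Of 32851 such windows in the table, 42.2% hold at least 1 match. The *Cldn5* window, chr16:18776597-18776846, holds 2. Of the *Cav1* windows, chr6:17306085-17306334 holds 0 and chr6:17307390-17307639 holds 2. The *Tjp1* window and both *Ocln* windows hold 0. A match is a run of letters and not a measured binding site.
Cldn5: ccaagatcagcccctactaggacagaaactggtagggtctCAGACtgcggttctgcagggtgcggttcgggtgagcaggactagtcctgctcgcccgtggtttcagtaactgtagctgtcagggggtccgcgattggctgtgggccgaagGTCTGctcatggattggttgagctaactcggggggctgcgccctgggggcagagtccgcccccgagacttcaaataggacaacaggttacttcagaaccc
Cav1, second start: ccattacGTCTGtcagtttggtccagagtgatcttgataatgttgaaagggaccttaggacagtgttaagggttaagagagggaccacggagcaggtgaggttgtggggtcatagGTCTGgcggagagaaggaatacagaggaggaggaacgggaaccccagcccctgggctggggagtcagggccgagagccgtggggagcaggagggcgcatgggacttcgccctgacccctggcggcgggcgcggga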

How the data were processed

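Nuclei of brain vascular fragments were profiled with the PIPseq kit. The authors aligned the reads with PIPseeker, took away background with CellBender and doublets with SOLO, and discarded further mixed nuclei by hand. The matrix they deposited holds UMI counts, not normalized. The methods name a GRCm39 index, whereas the submitters' processing notes name mm10. Cell types are the authors' labels.

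UMIs were summed per label and library in Python 3.11.15 with numpy 2.4.6, scipy 1.17.1 and pandas 2.3.3. CPM have exact Poisson intervals, ratios exact conditional binomial intervals and shares exact binomial intervals, all at 95%. Shares at equal depth are expected values for nuclei thinned to 1000 UMIs. Lists used genes with at least 100 UMIs in ECs and a fold of 1.5, with 0.5 UMIs added for median log2 ratios. Named genes were the 8 genes, list genes past the fold, the 3 of each list with the most UMIs, and the 3 genes most alike. The ratio and thinning steps were tested on simulated data. Members and lists were chosen with earlier results of these data known. The promoter motif was chosen after the data had been seen. Retina libraries were not used.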

Additional observations from a re-analysis of the deposited data

How the results depend on the processing

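No paired analysis was possible because each genotype has 1 library. Ratios in ECs were recomputed in 9 other settings, and those that moved beyond the counting interval or changed direction follow; the cause was not tested. TMM scaling gave *Cldn5* 0.698, *Ocln* 0.722, *Tjp1* 0.888, *Esam* 0.797, *Cdh5* 1.40 and *Cav1* 2.70, with 1 of the 8 genes and 1 adherens junction gene past 1.5-fold higher and 0 and 5 lower, beside 15.3% of all genes higher and 10.3% lower, and an adherens median log2 ratio of -0.085. Nuclei of equal weight gave *Ocln* 0.684, *Tjp1* 0.793, *Jam2* 0.655, *Cdh5* 1.43 and *Cav1* 2.49, with 1 gene past the fold in each direction, beside 39.7% of all genes higher and 9.50% lower. Nuclei with at least 1000 UMIs gave *Tjp1* 1.01. ECs defined by at least 2 endothelial markers gave *Cldn5* 1.01, *Ocln* 1.02, *Tjp1* 1.16, *Jam2* 0.976, *Esam* 1.14, *Cdh5* 1.94 and *Cav1* 3.20. These are 3279 control and 3142 CKO nuclei of any label, so the set differs from the labeled ECs in more than its definition of a marker. EC nuclei without pericyte marker UMIs, which are shallow at medians of 505 and 444 UMIs, gave *Cldn5* 0.997, *Ocln* 0.724, *Tjp1* 0.548, *Esam* 2.84, *Cdh5* 1.86 and *Cav1* 3.17, with 3 genes past the fold higher and 1 lower, beside 47.2% and 21.9% of all genes. With 363 control and 133 CKO nuclei many genes can have few or 0 UMIs, so these shares are coarse. *Cldn5* was at 1156 CPM in the control nuclei of this subset, against 2588 CPM in control EC nuclei with pericyte marker UMIs. The CKO values were 1153 and 1908 CPM, so the subset is unlike the other EC nuclei, and more so in control. Without cycling nuclei the ratios were *Cldn5* 0.774, *Tjp1* 1.00 and *Cav1* 2.72. Thinning to 1000 UMIs gave *Cldn5* 0.718 and *Plvap* 0.738. In settings added after the data had been seen, scaling to endothelial markers gave *Cldn5* 0.975, *Ocln* 1.01, *Tjp1* 1.24, *Jam2* 0.942, *Esam* 1.11, *Cdh5* 1.95 and *Cav1* 3.77, and pericyte markers at most 10% of marker UMIs gave *Ocln* 0.668, *Tjp1* 0.624, *Esam* 1.24 and *Cdh5* 1.63, with 2 genes past the fold higher and 1 lower, beside 54.2% and 17.3% of all genes. The last of these settings holds 518 control and 219 CKO nuclei, so its shares of all genes are coarse too. A fold of 2 left 1 gene higher, beside 734 of 9792 genes. Lists with at least 20 UMIs had 1 tight junction gene, *Cldn11*, and 4 caveola genes past 1.5-fold lower, beside 1593 of 13154 genes. *Plvap* gave no ratio in the settings limited by pericyte markers. Of 16 EC shares, 15 moved without thinning, 14 when thinned to 500 UMIs and 14 in unthinned nuclei with at least 1000 UMIs, a setting added after the data had been seen, and of 16 EC levels 15 moved with nuclei of equal weight.

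The brain values rest on 1 library per genotype, from 2 pooled brains each, so differences between mice cannot be told apart from genotype. Sex-linked transcripts, hemoglobin and pericyte transcripts differ between the libraries, and their part in the ratios was not tested. The ratios of *Cldn5*, *Ocln*, *Tjp1* and *Esam* change direction with the scaling or the choice of nuclei, whereas *Cav1* was above 1 and above the median of all genes in all settings run. *Cdh5* was above 1 in all of them, but below that median, which was 1.96 and 1.78, in the 2 settings limited by pericyte markers. Few nuclei make the median coarse in these 2 settings, so it is a weak reference for both genes there. *Plvap* and the small labels are limited by depth.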
